A study of Danio rerio with 2 samples.

Results

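Xanthophores, the yellow pigment cells of zebrafish, were taken from the single-cell libraries by their transcripts. A member was a barcode with 500 to 20000 UMIs (unique molecular identifiers, each counting 1 captured transcript), 500 to 5000 genes and at most 20% mitochondrial UMIs, in which at least 3 of *gch2*, *xdh*, *aox5*, *pax7a* and *pax7b* were detected with 5 or more UMIs summed over them, and in which *pnp4a*, an iridophore gene, had under 5 UMIs. These criteria gave 494 members among 65020 barcodes that passed the cell limits. Of these, 217 of 27277 came from the library labelled mutant and 277 of 37743 from the library labelled wild-type.

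The study asked how a mutation of *polr3a*, the gene of a catalytic subunit of RNA polymerase III, changes the larval head. Each library came from 1 pool of 10 heads of zebrafish at 3 days after fertilization, cut at the pectoral fin, dissociated in trypsin and sorted for viable cells. Both pools were offspring of one kind of cross, *polr3a* sa907/+; Tg(fli1a:egfp) by *polr3a* sa907/+; Tg(sox10:mRFP), and were screened for both colours, so the fish of the 2 groups share the transgenes. The mutant pool was *polr3a* sa907/sa907 and the wild-type pool *polr3a* +/+. The mutation is present in every cell of the mutant fish, so a difference in xanthophores cannot be assigned to *polr3a* within these cells. With 1 library per genotype there is no replicate, so no test between genotypes was made. The intervals given here are exact 95% intervals that cover counting error only, not the differences among fish, pools or cells.

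*polr3a* itself was not lower in the members of the library labelled mutant, where 27 UMIs were found against 14 in the members labelled wild-type. The log2 ratio of their CPM (UMIs per 1000000 UMIs of the set) was 1.23 (0.25 to 2.27). In all other barcodes its log2 ratio was 0.22. The transcript level therefore gives no check of the genotype labels, and both libraries are named by their labels throughout.

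Xanthophores descend from the neural crest. Their colour comes from pteridines, which are made from GTP in a chain of enzymes that starts with GTP cyclohydrolase, and from carotenoids taken up from the diet. Pax3 and Pax7 transcription factors specify the lineage in fish, and the receptor tyrosine kinase Csf1ra is needed for xanthophores to develop and persist. Iridophores, which hold reflecting purine crystals, and melanophores, which hold melanin, come from the same embryonic source.

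The label was first checked with pigment genes that the criteria did not use. These were *pts* and *sprb*, 2 further enzymes of pteridine synthesis, *slc2a15a*, *slc2a15b* and *slc2a11b*, sugar transporter relatives known from pigment cells of fish, and *slc22a7a*, an organic anion transporter relative. At least 2 UMIs over these 6 genes were found in 194 of the 217 members labelled mutant and in 223 of the 277 labelled wild-type, called pigment-positive here. The other members, 10.6% (6.84 to 15.5) labelled mutant and 19.5% (15 to 24.7) labelled wild-type, went against the label. In these 23 and 54 members *gch2* stood at 321 and 337 CPM, and *csf1ra* at 7.82 and 5.67 CPM. *pax7a*, which is also used in the developing brain and in muscle, stood at 1001 and 819 CPM in them. Markers of neurons summed to 3863 and 3133 CPM there and markers of neural progenitors to 3620 and 4607 CPM. All barcodes outside the members were near these levels, with 2985 and 3377 CPM for neurons and 4405 and 4123 CPM for neural progenitors. At least 5 neuron UMIs were found in 13 of the 23 and 34 of the 54. Single members held 30.0% and 9.32% of the neuron UMIs and 48.4% and 24.6% of the progenitor UMIs. These 77 members are therefore not called xanthophores below.

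Among the pigment-positive members the level of *gch2* rose with the number of further pigment UMIs, a description, since *gch2* helped to choose the members. It was 5236 CPM labelled mutant and 4487 CPM labelled wild-type with 2 to 4 such UMIs, 14042 and 9427 CPM with 5 to 9, 29069 and 17044 CPM with 10 to 19, and 38673 and 39955 CPM with 20 or more. The last band held 105 and 104 members, with median depths of 5143 and 4243.5 UMIs against 2711 and 2348 UMIs in the first, so that depth moved with the bands. *csf1ra*, which the criteria did not use, rose along the same bands, from 76.4 and 61.5 CPM in the first to 599 and 643 CPM in the last.

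**Figure D1:**
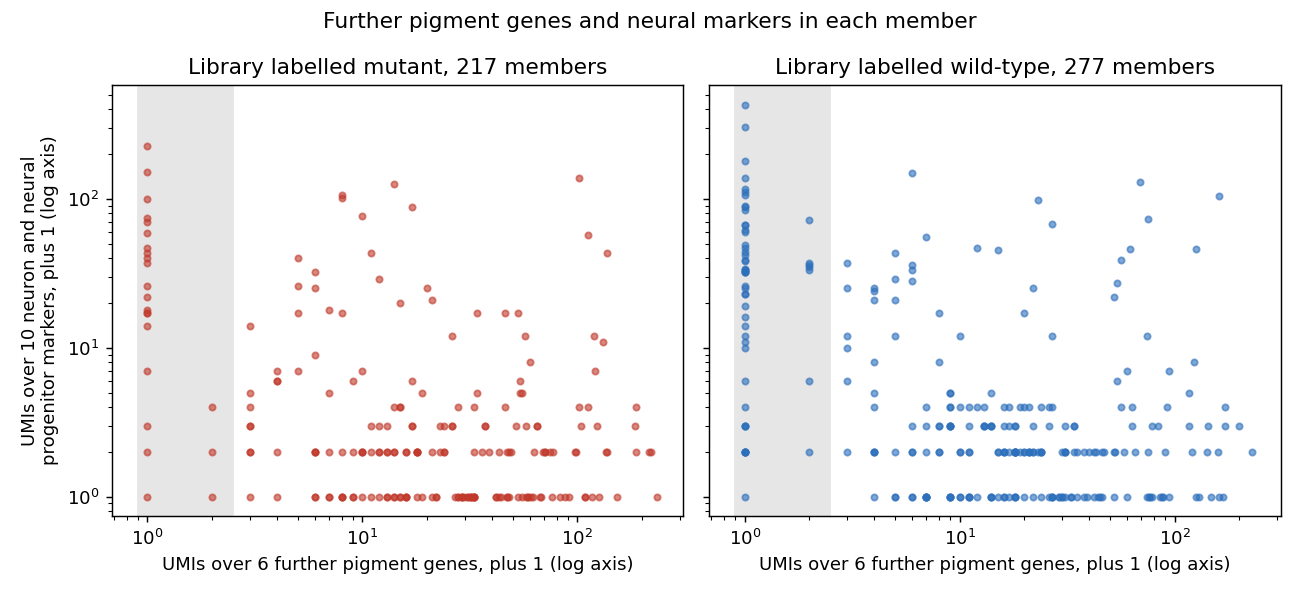
UMIs over 6 further pigment genes (x axis, log, plus 1) against UMIs over 10 neuron and neural progenitor markers (y axis, log, plus 1) in each of the 217 and 277 members, 1 point per member. The grey band holds the 23 and 54 members with fewer than 2 further pigment UMIs, among which many have high neural marker counts.

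Transcripts of other cell types were found in many pigment-positive members too. A set of 67 markers of 13 other cell types, among them neurons, photoreceptors, epidermis, cartilage, muscle and blood cells, summed to under 5 UMIs in 118 of 194 pigment-positive members labelled mutant (60.8%, 53.6 to 67.7) and 116 of 223 labelled wild-type (52.0%, 45.2 to 58.7). They are called low-marker members here, and the remaining 76 and 107 high-marker members. Median depth was 2285 and 2511.5 UMIs in the low-marker members and 4960.5 and 3176 UMIs in the high-marker members, so a fixed limit in UMIs also kept the shallower cells. In low-marker members neuron markers stood at 127 and 119 CPM and neural progenitor markers at 63.5 and 97.6 CPM. In high-marker members the same markers stood at 1311 and 1546 CPM and at 1292 and 1689 CPM. Of the 5 macrophage markers other than *csf1ra*, only *ctss2.1* had a UMI in pigment-positive members, and only in the library labelled wild-type, while *csf1ra*, which macrophages share with xanthophores and which the limit did not use, had 252 and 319 UMIs in low-marker members. The levels of the other markers in low-marker members follow from the limit.

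Members made up 0.796% (0.694 to 0.908) of the barcodes labelled mutant and 0.734% (0.650 to 0.825) of those labelled wild-type. Pigment-positive members made up 0.711% (0.615 to 0.818) and 0.591% (0.516 to 0.673), and low-marker members 0.433% (0.358 to 0.518) and 0.307% (0.254 to 0.369). The median depth of all barcodes that passed was 4157 UMIs labelled mutant and 3466 UMIs labelled wild-type. After every barcode was thinned to 2000 UMIs, with 6542 and 10920 shallower barcodes left out, 121 of 20735 (0.584%, 0.484 to 0.697) and 150 of 26823 (0.559%, 0.474 to 0.656) met the criteria. The ratio of the shares, labelled mutant over labelled wild-type, was 1.08 (0.903 to 1.30) for all members, 1.2 (0.988 to 1.47) for pigment-positive members and 1.04 (0.808 to 1.33) for pigment-positive members after thinning, so for these no difference was detectable at this depth. For low-marker members it was 1.41 (1.08 to 1.83), beyond counting error, while for high-marker members it was 0.983 (0.723 to 1.33). The low-marker limit was set after the data were seen and depends on depth. Its share was not taken after thinning, so this ratio cannot be read as a difference between genotypes. No barcode sequence was shared between members of the 2 libraries, against 294 shared among all barcodes that passed.

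The criteria sat on a slope of weak barcodes. Exactly 5 UMIs over the 5 genes were found in 3 members labelled mutant and 13 labelled wild-type, and 2 and 11 barcodes with 4 UMIs fell just outside. The limit of 3 genes left out many more. With *pnp4a* under 5 UMIs, 752 and 1177 barcodes had 5 or more UMIs over exactly 2 of the genes. Of the 12 and 37 members with 5 to 9 UMIs, 2 and 6 were pigment-positive. *pnp4a* was at 0 UMIs in 171 and 219 members, and its limit left out 9 and 15 barcodes that otherwise met the criteria. A further 49 and 23 barcodes met the criteria outside the cell limits, 14 and 10 of them above 20000 UMIs.

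The 5 genes of the criteria varied widely among members. The values here, and the levels up to the comparison of the 2 libraries, are over all members, those that went against the label included. UMIs of *gch2* ran from 0 to 1408 per member labelled mutant, with a median of 63, and from 0 to 1266 labelled wild-type, with a median of 18. In pigment-positive members alone its medians were 72.5 and 37, and in low-marker members 70.5 and 46.5. Over all members the medians of *xdh*, which encodes xanthine dehydrogenase, were 1 and 1, those of *aox5*, an aldehyde oxidase that works on the yellow pteridines, 3 and 2, those of *pax7a* 2 and 2, and those of *pax7b* 4 and 6. All 5 genes were detected in 83 and 82 members. *gch2* was detected in 97.2% and 93.9% of members. Among 8305 and 12999 barcodes with neuron markers, which should lack it, 2.36% and 2.39% had a *gch2* UMI, with median depths of 4956 and 4294 UMIs, which is the background to set beside these shares. The members were chosen by these 5 genes and by *pnp4a*, so their levels are a description.

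Leading genes were those with at least 100 CPM in the members of both libraries, ranked by the smaller of their 2 folds over all other barcodes, and included enzymes of pteridine synthesis and a protein of lipid droplets. *sprb*, the sepiapterin reductase, stood at 127 and 106 CPM in members, 509-fold and 912-fold over the other barcodes. *bscl2l*, a relative of the lipid droplet protein seipin, followed with 1324 and 1034 CPM, 443-fold and 428-fold. *aox5* (887 and 683 CPM), *oacyl*, an acyltransferase relative (301 and 331 CPM), *tat*, tyrosine aminotransferase (494 and 415 CPM), *xdh* (371 and 270 CPM) and *slc2a11b* (2309 and 1708 CPM) were all among the 15 leading genes. *wu:fc46h12*, to which no role is given here, was the leading gene with the most UMIs, 47554 and 47142 in members, or 46548 and 37945 CPM against 128 and 112 CPM elsewhere. The remaining leading genes were *cax1*, *tmem130*, *cyb561a3b*, *slc22a7a*, *zgc:162150*, *si:dkey-251i10.2* and *zgc:113142*.

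Within the pteridine enzymes, the members differed from the other pigment cells step by step. *gch2*, the entry enzyme, stood at 29035 and 21957 CPM in members, at 3964 and 4223 CPM in iridophores (209 and 290 barcodes with at least 5 *pnp4a* UMIs and at least 1 UMI of *ltk*, *alx4a*, *alx4b*, *tfec* or *ednrba*), and at 2625 and 1596 CPM in melanophores (107 and 137 barcodes with at least 3 melanin genes, 10 or more UMIs over them and at least 1 UMI of *mitfa*, *sox10* or *kita*). It was detected in 86.0% and 75.2% of melanophores, so this step was shared. *pts*, the second enzyme, stood at 792 and 526 CPM in members and at 77.3 and 79.2 CPM in melanophores. Barcodes that met the xanthophore criteria were left out of the melanophores, which also had 0 UMIs over markers of the retinal pigment epithelium. *sprb*, *xdh* and *aox5* were at 0 to 2.27 CPM in the melanophores of both libraries. For *xdh* and *aox5*, genes of the criteria, these low values follow in part from that choice. By contrast *pcbd1* and *qdpra*, which recycle the cofactor tetrahydrobiopterin, were higher in melanophores, with 618 and 646 CPM for *pcbd1* against 204 and 149 CPM in members. *mocos*, chosen after its values were seen, encodes the enzyme that activates the molybdenum cofactor of xanthine dehydrogenase and aldehyde oxidase, and it stood at 611 and 514 CPM in members and 2.27 and 0 CPM in melanophores.

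Purine synthesis, which supplies the GTP for pteridines, was shared with iridophores. *paics*, an enzyme of the de novo purine pathway, stood at 1477 and 1090 CPM in members and 1582 and 1851 CPM in iridophores, against 31.8 and 33.4 CPM in melanophores. *impdh1b*, which commits purines to the guanine branch, was lower in members (752 and 595 CPM) than in iridophores (2977 and 3317 CPM). *gmps*, the GMP synthetase, had the same order, with 637 and 501 CPM in members and 1675 and 1842 CPM in iridophores.

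For carotenoids, *scarb1*, the lipoprotein receptor that zebrafish need for yellow carotenoid colour, stood at 155 and 105 CPM in members against 7.20 and 7.47 CPM in all other barcodes. *bco1*, which cleaves beta-carotene, stood at 464 and 387 CPM against 6.19 and 6.20 CPM. Only 4 of the 10 genes found from the carotenoid and lipid droplet list reached a mean of 20 CPM in members, the other 2 being *plin2* and *abca1a*.

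The carriers separated the pigment cells in different ways. *slc2a15a* stood at 911 and 849 CPM in members, 540 and 591 CPM in iridophores and 0 and 1.76 CPM in melanophores, while its paralog *slc2a15b* stood at 661 and 542, 369 and 358, and 527 and 475 CPM. *slc2a11b* and *slc22a7a* were led by the members, with 2822 and 2432 CPM for *slc22a7a* against 279 and 366 CPM in iridophores and 316 and 266 CPM in melanophores.

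Among receptors, *csf1ra* stood at 437 and 387 CPM in members and was detected in 57.6% and 52.3% of them. In melanophores 0 of 107 and 0 of 137 had a *csf1ra* UMI, with median depths of 2442 and 2893 UMIs. *mc5ra*, a melanocortin receptor chosen after its values were seen, was shared with melanophores (393 and 292 CPM in members, 430 and 296 CPM in melanophores). *ednrba*, an endothelin receptor that helped to choose the iridophore set, stood at 213 and 205 CPM in members and 472 and 480 CPM in iridophores. *igsf11*, an adhesion protein of the melanophore pattern, and *thrab*, a thyroid hormone receptor, stood at 549 and 452 CPM and at 846 and 652 CPM in members.

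Of the transcription factors, *pax7b* was led by the members, with 3359 and 3039 CPM against 127 and 166 CPM in iridophores and 13.6 and 0 CPM in melanophores. *pax7a* was less restricted, with 403 and 426 CPM in iridophores. Both genes helped to choose the members, and barcodes that met the criteria were left out of the melanophores, so these levels are a description. *mitfa*, the master factor of melanophores and 1 of the genes that chose that set, stood at 208 and 154 CPM in members and 734 and 464 CPM in melanophores. *sox10*, which acts in the neural crest and its pigment derivatives, stood at 186 and 182 CPM in members. *tfap2e* was higher in melanophores (761 and 653 CPM) than in members (185 and 262 CPM).

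**Figure D2:**
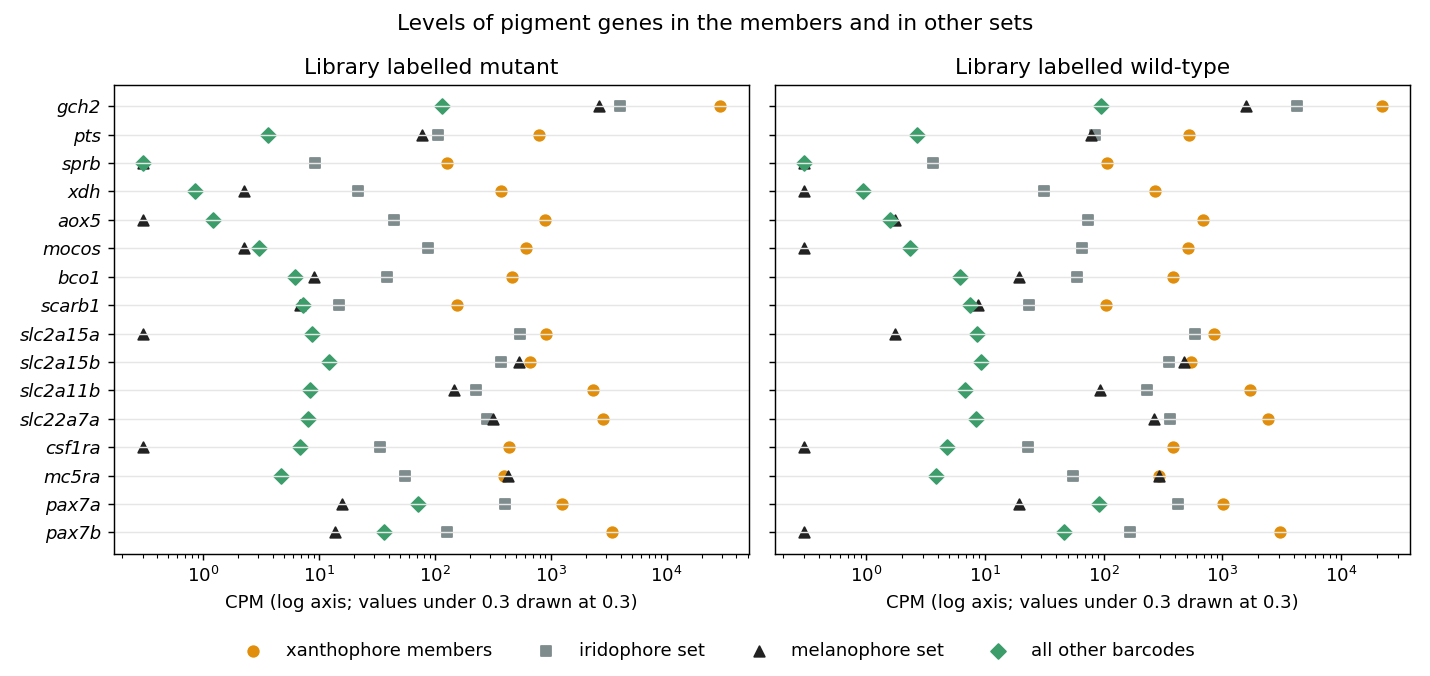
CPM (x axis, log, values under 0.3 drawn at 0.3) of 16 pigment genes in the members, the iridophore set, the melanophore set and all other barcodes of each library. The members lie to the right for *xdh*, *aox5*, *bco1* and *csf1ra*, whereas *slc2a15b* and *mc5ra* have melanophores close by.

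The 2 libraries were then compared over all members. Of the 3319 genes that averaged 50 CPM or more over both libraries, 30 (0.904%) were at least 2-fold higher in the library labelled mutant and 91 (2.74%) at least 2-fold lower, and the median log2 ratio was -0.05. The extremes came from few cells. The 10 highest ratios were 8 globin genes, the erythrocyte carbonic anhydrase *cahz* and the muscle gene *pvalb5*. *hbbe1.1*, an embryonic beta-globin, had 6794 against 244 UMIs, a log2 ratio of 5.08 (4.90 to 5.27), with 43.1% of the first in 1 member and 81.6% of the second in 1 member. In low-marker members it had 22 against 13 UMIs. *pvalb5* had 134 against 2 UMIs, of which 65.7% of the first were in 1 member.

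Epidermal and eye genes led the other end. *krt4*, a keratin of the surface epidermis, had 49 against 1772 UMIs, a log2 ratio of -4.89 (-5.33 to -4.49), and *cyt1*, another keratin, 18 against 872 UMIs. In low-marker members these fell to 16 against 33 UMIs and 8 against 7 UMIs. *opn1sw2*, the opsin of blue cones, had 8 against 1227 UMIs, 95.4% of them in 1 member, and *si:ch211-286c4.6* had 0 against 167 UMIs, at least 45.8-fold lower in the library labelled mutant with 3 UMIs as the floor of its library. The melanin genes *tyrp1b*, *dct* and *pmelb* had 23 against 371, 10 against 160 and 11 against 138 UMIs, with 56.9% of the *tyrp1b* UMIs labelled wild-type in 1 member. In low-marker members they had 13 against 4, 5 against 1 and 10 against 0 UMIs. The globin, keratin and opsin markers were among those that set the low-marker limit, so their low counts in those members follow from the choice. Since the ratios over all members rested on few members for several of these genes, the low-marker members are given beside all members from here on. Over low-marker members 44 of 2872 genes (1.53%) were at least 2-fold higher and 34 (1.18%) at least 2-fold lower.

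The pteridine enzymes were the first list compared. Over all members the 14 genes found had 32239 UMIs labelled mutant and 29610 labelled wild-type, a log2 ratio of summed CPM of 0.40 (0.38 to 0.43). In the low-marker members, 18503 against 18287 UMIs gave 0.05 (0.02 to 0.08), with -0.04 to 0.26 over 5 limits on markers of other cell types. *gch2*, whose value the criteria used, moved with this sum, from 0.40 (0.38 to 0.43) to 0.05 (0.01 to 0.08). *pts* went from 0.59 (0.44 to 0.74) to 0.22 (0.02 to 0.42), with 438 against 387 UMIs in low-marker members. The intervals of *xdh*, *aox5* and *sprb* in low-marker members included 0, with log2 ratios of 0.26, 0.15 and -0.06. Over all pigment-positive members the list stood at 0.12 (0.10 to 0.15), and in high-marker members at 0.26 (0.22 to 0.29). The pigment-negative members held few pteridine UMIs, 63 and 219, and were more common in the library labelled wild-type, as given above. How far they bear on the value over all members was not tested.

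Of the other pigment lists, 5 stood between 0.00 and 0.15 in low-marker members. Among these, the intervals of purine synthesis and the granule machinery lay above 0. Lineage transcription factors and melanin synthesis are given further below. The summed log2 ratio was 0.15 (0.07 to 0.23) for purine synthesis, 0.11 (-0.09 to 0.31) for carotenoid and lipid droplet genes, 0.02 (-0.04 to 0.08) for the carriers, 0.00 (-0.11 to 0.11) for receptors and signals, and 0.10 (0.02 to 0.18) for the granule machinery. *pts*, *sprb* and the carriers *slc2a15a*, *slc2a15b*, *slc2a11b* and *slc22a7a* helped to choose the pigment-positive members, so the values of these genes and of the carrier list there are a description. No gene of these 5 lists that averaged 20 CPM or more was 2-fold apart there, where 4.86% of 6035 genes were 2-fold higher and 4.34% 2-fold lower. Single genes, chosen after their values were seen, departed from 0 by less than 2-fold. *slc24a4a*, a sodium, calcium and potassium exchanger, had 205 against 134 UMIs in 51 and 49 low-marker members, a log2 ratio of 0.65 (0.33 to 0.98). *gpr143*, a receptor of pigment granules, had 63 against 100 UMIs, a log2 ratio of -0.63 (-1.11 to -0.16), and *oacyl* 194 against 282 UMIs, -0.50 (-0.77 to -0.23).

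Lineage transcription factors leaned lower in the library labelled mutant among low-marker members, but not over all members. Over all members 10 of 17 that averaged 20 CPM or more were above 0, beside 45% of 7065 genes. Their median was 0.14 and their summed log2 ratio 0.12 (0.07 to 0.17). High-marker members had 8 of 17 above 0, with a median of -0.21 and a summed log2 ratio of -0.14 (-0.22 to -0.07). In low-marker members 13 of the 16 that averaged 20 CPM or more had a negative log2 ratio, with a median of -0.36, while their summed log2 ratio, in which *pax7b* weighs most, was -0.02 (-0.09 to 0.05). Of all 6035 genes at that level, 50.4% had a ratio above 0, and none of the 16 factors was 2-fold apart. Among those chosen after their values were seen, *tfeb*, a relative of Mitf, had 36 against 70 UMIs, a log2 ratio of -0.92 (-1.54 to -0.32), and *sox10* 93 against 137 UMIs, -0.52 (-0.92 to -0.13). The values of *pax7a* and *pax7b*, which helped to choose the members, are a description. Summed UMIs of *pax7a* went the other way, with 672 against 562 UMIs and 0.30 (0.13 to 0.46). Those of *pax7b* were level, with 1913 against 1982 UMIs and -0.01 (-0.11 to 0.08). Counted by member, *pax7a* was detected in 67 of 118 against 83 of 116, with medians of 1 against 2 UMIs. The medians of *pax7b* were 4 against 11.5 UMIs. *csf1ra* had 252 against 319 UMIs, -0.30 (-0.55 to -0.06), whereas over all members it stood at 0.17 (-0.02 to 0.36).

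The integrated stress response, in which phosphorylated eIF2alpha slows translation and the factor Atf4 switches on genes of amino acid supply and protein folding, differed between low-marker and high-marker members. Over all members the summed log2 ratio of its 35 genes was 0.58 (0.50 to 0.66), with 20 of 24 genes above 0 (45% of 7065 genes were) and 6 at least 2-fold higher (1.7% of genes). In high-marker members it was 0.81 (0.69 to 0.94). In the 118 and 116 low-marker members, 690 against 727 UMIs gave -0.04 (-0.19 to 0.11), with 11 of 20 genes above 0, a median of 0.04 and 1 gene at least 2-fold higher (4.86% of 6035 genes were). The difference between low-marker and high-marker members was -0.85 (-1.04 to -0.65).

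The other pigment cells did not share this level. With the same limit of 5 UMIs over markers of other cell types, the stress list stood at 0.57 (0.49 to 0.65) in 109 and 145 iridophores and at 0.64 (0.49 to 0.80) in 63 and 78 melanophores. Low-marker xanthophores differed from these by -0.61 (-0.78 to -0.44) and -0.68 (-0.90 to -0.46), counting error only, and from all other barcodes, which stood at 0.84 (0.83 to 0.85), by -0.88 (-1.03 to -0.73). Median depth was 7579 and 6164 UMIs in these iridophores and 2177 and 2528 UMIs in these melanophores, so xanthophores and melanophores were of like depth. The limit did not clear melanin transcripts from these iridophores. Melanin synthesis genes summed there to 1887 CPM labelled mutant but 7900 CPM labelled wild-type. How far such transcripts bear on the comparisons with iridophores, here and below, was not tested.

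The value in xanthophores depended on how much of other cell types was let in. Under limits of 3, 5 or 10 UMIs, or of 1 or 2 in 1000 UMIs of the cell, it ran from -0.04 to 0.03, whereas iridophores ran from 0.57 to 0.70 and melanophores from 0.48 to 0.64. Under a limit of 5 in 1000 UMIs, which kept 161 and 171 members, it was 0.37 (0.26 to 0.48). Over all pigment-positive members it was 0.48 (0.39 to 0.58), 0.31 (0.20 to 0.41) without the 3 members of each library with the most stress UMIs, and 0.13 (0.02 to 0.25) without the first 10. The 3 highest members held 145, 122 and 116 such UMIs in the library labelled mutant and 43, 33 and 32 labelled wild-type. High-marker members were deeper in the library labelled mutant, as given above, and the part of doublets and of free RNA in these values was not tested.

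Shares of cells were also compared. After thinning to 1000 UMIs, at least 2 stress UMIs were found in 35 of 108 low-marker members labelled mutant (32.4%, 23.7 to 42.1) and in 54 of 112 labelled wild-type (48.2%, 38.7 to 57.9), with 10 and 4 shallower members left out. With no limit on markers of other cell types, the shares were 44.6% (37.3 to 52.1) and 42.4% (35.7 to 49.3) in pigment-positive members. In all iridophores, again without that limit, they were 64.1% (57.2 to 70.6) and 52.6% (46.7 to 58.5), and in all melanophores 69.5% (59.8 to 78.1) and 54.6% (45.7 to 63.4). Without thinning, at least 2 in 1000 UMIs were stress UMIs in 22% (14.9 to 30.6) and 35.3% (26.7 to 44.8) of low-marker members. In each of these comparisons the intervals of the 2 libraries overlapped, which does not show that the shares were equal. The unthinned shares were 33.0% (26.4 to 40.1) and 30.5% (24.5 to 37.0) in all pigment-positive members. In all iridophores they were 69.9% (63.1 to 76.0) and 41.0% (35.3 to 46.9), whose intervals did not overlap.

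Single stress genes differed in this respect, and *atf4b*, *slc3a2b* and *xbp1* were chosen after their values were seen. *atf4b*, a zebrafish copy of the central factor, had 73 against 77 UMIs there and a log2 ratio of -0.04, against 0.57 (0.35 to 0.80) over all members. *atf5b*, a related factor, had 62 against 18 UMIs over all members, 2.07 (1.29 to 2.91), but 9 against 10 in low-marker members. *slc3a2b*, a subunit of amino acid transporters, had 215 against 115 UMIs over all members and 6 against 11 in low-marker members. *xbp1*, a factor of the unfolded protein response, had 98 against 137 UMIs in low-marker members, -0.45 (-0.83 to -0.06). *chac1*, a glutathione-degrading target of Atf4, was the exception, with 169 against 78 UMIs over all members, 1.40 (1.0 to 1.80), and 38 against 16 in low-marker members, 1.29 (0.41 to 2.23). These 38 UMIs lay in 17 members, 28.9% of them in 1, and the 16 UMIs in 13 members.

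**Figure D3:**
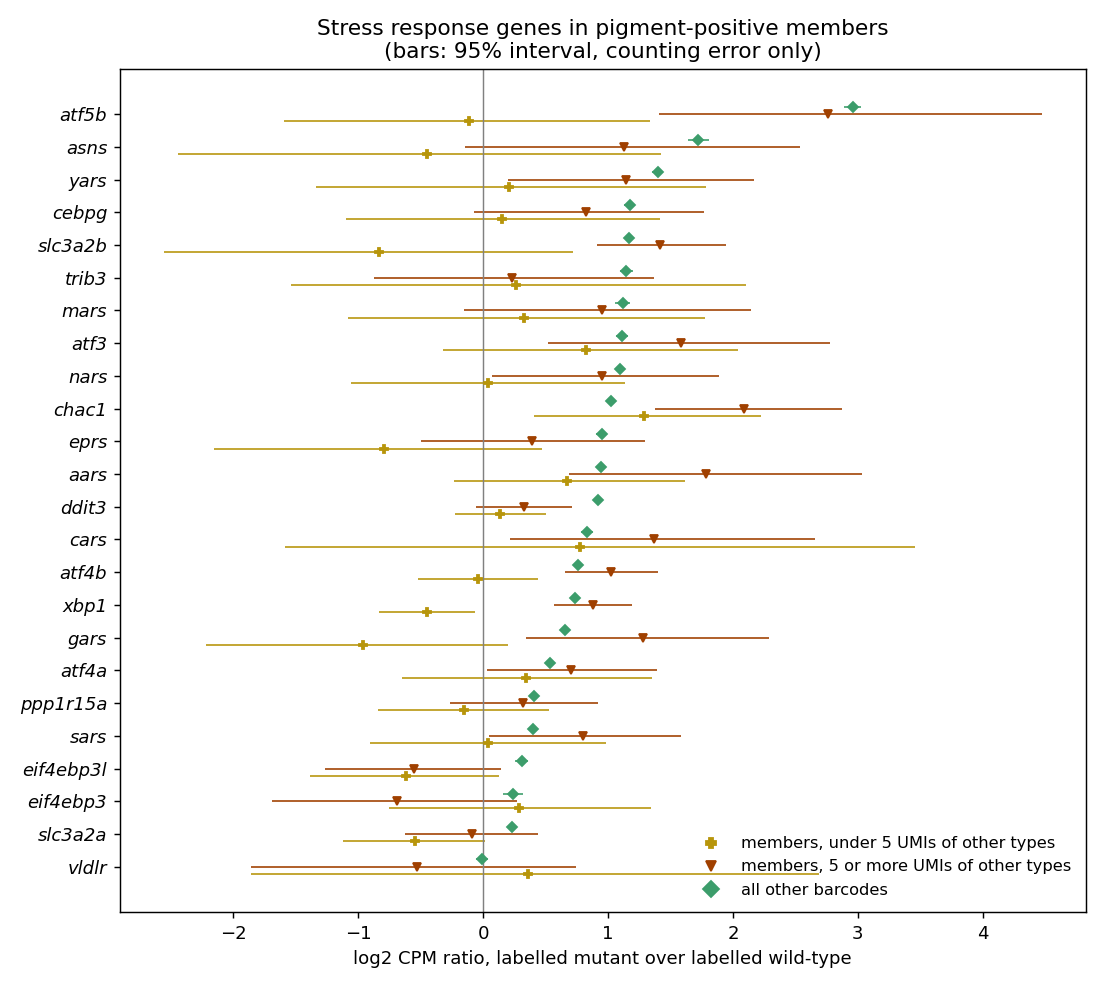
Log2 CPM ratio, labelled mutant over labelled wild-type (x axis, bars are 95% intervals of counting error), of each stress response gene in low-marker members, high-marker members and all other barcodes. The points of high-marker members and other barcodes lie mostly to the right of 0, whereas the intervals of low-marker members include 0 for the genes drawn except *chac1* and *xbp1*.

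Amino acid metabolism followed the same pattern among members. Its 34 genes stood at 0.60 (0.49 to 0.71) over all members, where 9 of 21 genes were at least 2-fold higher (1.7% of genes), at 0.77 (0.60 to 0.95) in high-marker members and at 0.12 (-0.11 to 0.36) in low-marker members, where 4 of 8 genes were above 0. *slc1a4*, a carrier of neutral amino acids, had 113 against 27 UMIs over all members, 2.35 (1.73 to 3.01), and 1 against 3 in low-marker members. *mthfd2* and *mat2ab*, enzymes of one-carbon metabolism and of S-adenosylmethionine synthesis, had 66 against 18 and 78 against 26 UMIs over all members, and 14 against 6 and 9 against 5 in low-marker members. Iridophores of few other markers stood at 0.25 (0.19 to 0.30), from which low-marker members differed by -0.12 (-0.36 to 0.11), so no difference from iridophores was detectable for this list. Melanophores of few other markers stood at 0.81 (0.55 to 1.08), a difference of -0.69 (-1.03 to -0.35). All other barcodes stood at 0.86, a difference of -0.74 (-0.97 to -0.51).

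Targets of p53, which include cell cycle brakes and repair genes, stood at 0.39 (0.30 to 0.47) over all members and at 0.06 (-0.09 to 0.21) in low-marker members, against 0.98 (0.88 to 1.07) in iridophores of few other markers. The difference from those iridophores was -0.92 (-1.09 to -0.74). From melanophores of few other markers, at 0.31 (0.11 to 0.51), it was -0.25 (-0.50 to -0.00). Counted by gene, the order against melanophores was the reverse. In low-marker members 10 of 16 genes were above 0 (50.4% of 6035 genes were), with a median of 0.26. Those melanophores had 4 of 15 above 0 and a median of -0.20, and those iridophores 16 of 18 and 0.58. *ccng1*, a cyclin gene of the p53 response, had 565 against 283 UMIs over all members, 1.28 (1.07 to 1.49), and 105 against 85 in low-marker members, 0.34 (-0.08 to 0.77). With no limit on markers of other cell types, its log2 ratio was 1.56 in all iridophores, 1.69 in all melanophores and 1.72 in all other barcodes. *mdm2*, the p53 inhibitor, had 44 against 19 UMIs over all members and 10 against 8 in low-marker members.

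**Figure D4:**
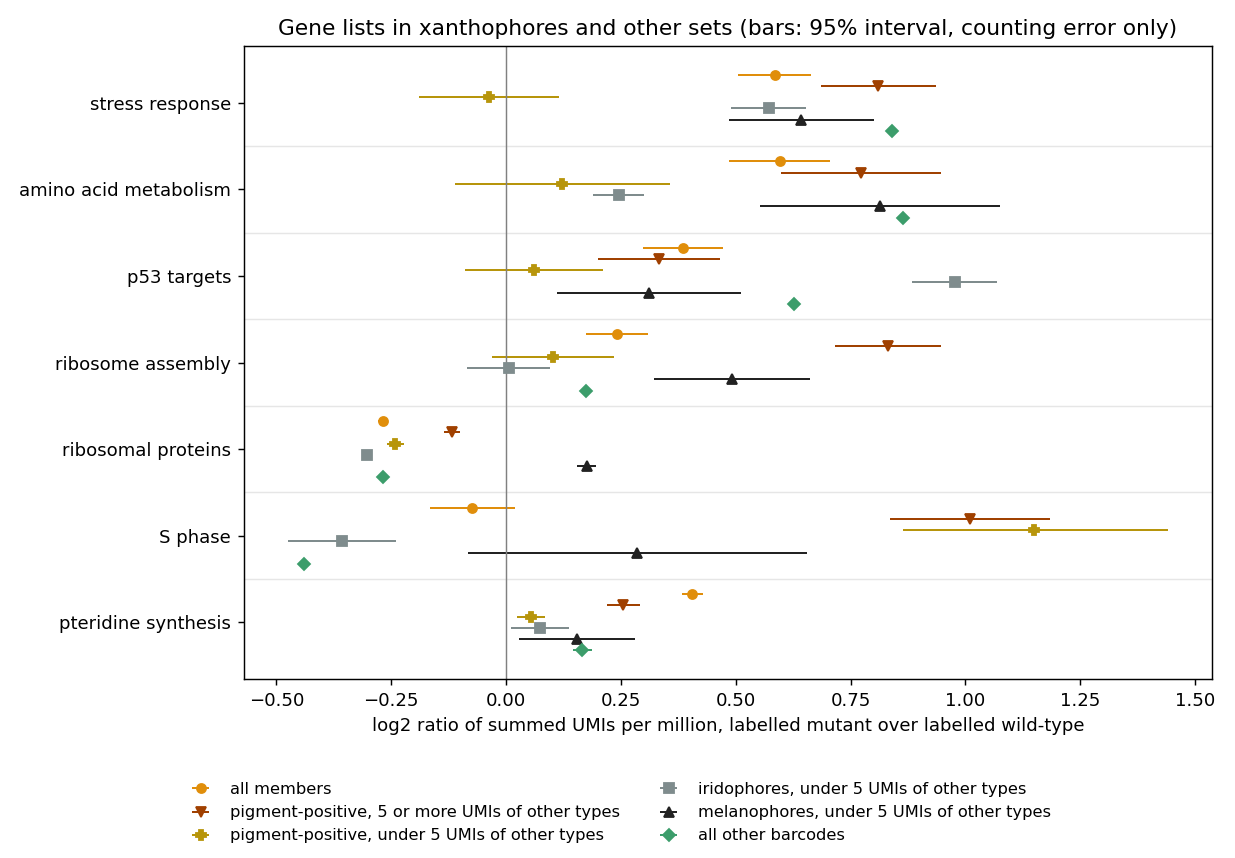
Log2 ratio of summed CPM, labelled mutant over labelled wild-type (x axis, bars are 95% intervals of counting error), of 7 gene lists in all members, high-marker members, low-marker members, iridophores and melanophores of few other markers, and all other barcodes. The stress list stands at -0.04 in low-marker members and between 0.57 and 0.84 in the other sets drawn.

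S phase genes, which serve DNA replication, went against the direction of the rest of the head. Over pigment-positive members they had 1157 against 551 UMIs, a summed log2 ratio of 1.06 (0.92 to 1.21), with 22 of 22 genes above 0 (44.7% of 6658 genes were) and 10 at least 2-fold higher (2.37%). In low-marker members 320 against 148 UMIs gave 1.15 (0.86 to 1.44). All other barcodes stood at -0.44 (-0.45 to -0.43) with 0 of 29 genes above 0 (60.5% of 8139 genes were), and iridophores and melanophores of few other markers at -0.36 (-0.47 to -0.24) and 0.28 (-0.08 to 0.65). The difference of low-marker members from those iridophores was 1.51 (1.2 to 1.81). Over the 5 limits named above the list ran from 0.84 to 1.42 in xanthophores, from -0.36 to 0.09 in iridophores and from -0.66 to 0.28 in melanophores, so the sign in both other sets turned with the limit. Over all members, pigment-negative ones included, the list stood at -0.07 (-0.17 to 0.02), so this result rests on leaving out the members that went against the label.

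*dnmt1*, the maintenance DNA methyltransferase, had 37 against 6 UMIs in pigment-positive members, and 12 UMIs in 10 members against 0 in low-marker members. *pcna*, the sliding clamp of the replication fork, chosen after its values were seen, had 204 against 63 UMIs in pigment-positive members, 1.69, and 53 against 17 in low-marker members, in 27 and 10 of them. *rrm2*, a subunit of ribonucleotide reductase, had 61 against 53 and 13 against 4 UMIs. *dut*, which removes dUTP, had 11 against 13 UMIs in low-marker members.

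These UMIs came from few members. In pigment-positive members 50% of the S phase UMIs lay in 6 and 8 members, the highest with 146, 137 and 131 UMIs labelled mutant and 73, 54 and 39 labelled wild-type, and 86 and 106 members had none. Without the 3 highest members of each library the summed log2 ratio was 0.98 (0.80 to 1.16) and without the 10 highest 0.91 (0.67 to 1.14), and in low-marker members it was 1.32 (0.96 to 1.70) and 1.26 (0.81 to 1.72). The share of members with S phase UMIs depended on how it was taken. At least 2 in 1000 UMIs were S phase UMIs in 17.5% (12.5 to 23.6) and 7.62% (4.50 to 11.9) of pigment-positive members, whose intervals did not overlap, and in 16.1% (9.98 to 24.0) and 4.31% (1.41 to 9.77) of low-marker members, whose intervals did not overlap either. After thinning to 1000 UMIs, 39 of 184 pigment-positive members (21.2%, 15.5 to 27.8) and 28 of 217 (12.9%, 8.75 to 18.1) had at least 2 S phase UMIs, and 18 of 108 low-marker members (16.7%, 10.2 to 25.1) and 12 of 112 (10.7%, 5.66 to 18.0), so the intervals overlapped. The mean was 1.13 and 0.664 thinned UMIs per pigment-positive member and 0.815 and 0.607 per low-marker member, closer than the pooled UMIs, in which deep members weigh more. G2/M genes stood at -0.74 (-0.81 to -0.67) over all members, with 5 of 20 genes at least 2-fold lower (3.99% of genes). Of these 2238 and 4543 UMIs, the pigment-negative members held 1427 and 3164, and they stood at 0.31 (0.22 to 0.41). The list stood at -0.77 (-0.90 to -0.65) in pigment-positive and at -0.21 (-0.44 to 0.02) in low-marker members. Only 3 and 2 of its 41 genes averaged 20 CPM or more in these 2 sets. Without the 3 and the 10 members of each library with the most G2/M UMIs, the pigment-positive value was -0.55 (-0.70 to -0.40) and -0.31 (-0.48 to -0.14), and the low-marker value turned to 0.09 (-0.17 to 0.35) and 0.22 (-0.08 to 0.53).

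**Figure D5:**
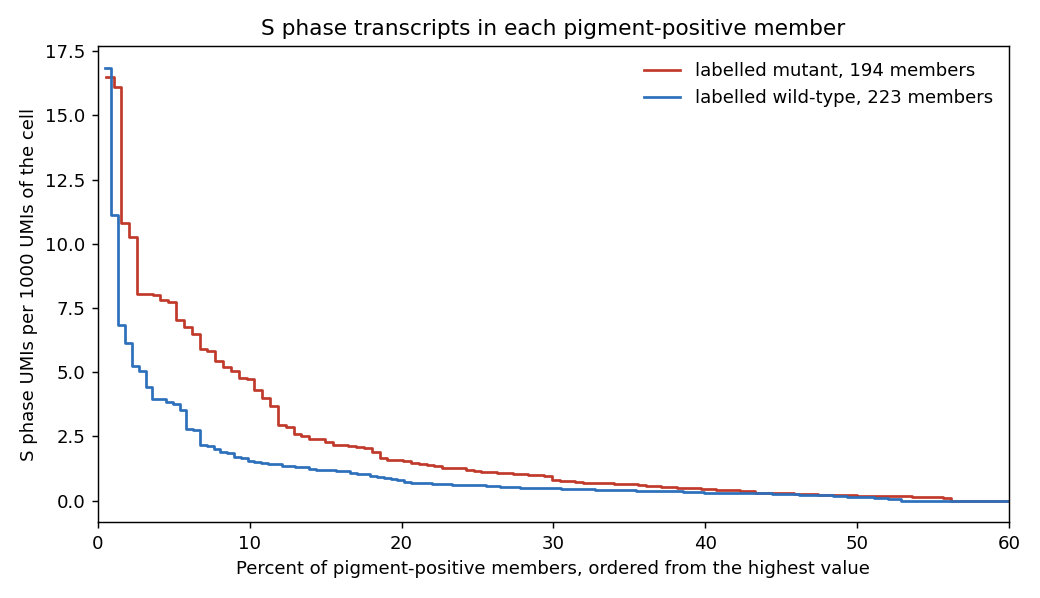
S phase UMIs per 1000 UMIs of the cell (y axis) in the pigment-positive members of each library, ordered from the highest value, against the percent of members (x axis). The single highest member is labelled wild-type, after which the curve of the library labelled mutant lies above the other over the following members, and both reach 0 before the end of the axis.

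Ribosomal protein genes were lower in the library labelled mutant by a small and even amount. In low-marker members 79 of 81 were below 0 and 2 above it (50.4% of 6035 genes were above 0), with a median of -0.24 and a summed log2 ratio of -0.24 (-0.26 to -0.22), against -0.27 in all other barcodes and -0.30 (-0.31 to -0.29) in iridophores of few other markers. Melanophores of few other markers stood at 0.18 (0.15 to 0.20), with -0.10 to 0.43 over the 5 limits named above. *rpl22l1*, a paralog of *rpl22*, had 374 against 797 UMIs over all members, -0.81 (-0.99 to -0.63), and 186 against 231 in low-marker members, -0.28 (-0.56 to 0.01), against -1.14 in all other barcodes. Ribosome assembly factors stood at 0.83 (0.72 to 0.95) in high-marker members and 0.10 (-0.03 to 0.24) in low-marker members. Genes of the Pol III machinery stood at -0.05 (-0.19 to 0.09) over all members, with 5 of 12 above 0, a share near that of all genes (45%).

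Other response genes rested on few UMIs. *klf10*, an early response factor, had 53 UMIs against 1 over all members, a log2 ratio of 6.01 (3.47 to 11.34), and 5.79 in all other barcodes, but 7 against 1 in low-marker members, in 3 and 1 of them. *socs3a*, a feedback inhibitor of cytokine signalling, had 45 against 25 UMIs in 22 and 13 low-marker members, 0.89 (0.15 to 1.65). *serpinh1b*, a collagen chaperone of the heat shock list, had 302 against 98 UMIs over all members, 1.91 (1.57 to 2.25). In low-marker members it had 42 against 5 UMIs, but 57.1% of the 42 lay in 1 member and they were found in 4 members. *hsp90aa1.2* had 67 against 203 UMIs over all members, -1.32 (-1.74 to -0.91), and 21 against 28 in low-marker members. Of the interferon genes, only *stat1a* and *socs1a* reached a mean of 20 CPM in members, with log2 ratios of -0.54 (-1.49 to 0.37) and -0.07 (-0.82 to 0.67).

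The remaining lists are given for low-marker members by their summed log2 ratios. Melanin synthesis stood at 0.59 (0.11 to 1.08), with 91 against 62 UMIs, against -2.35 (-2.61 to -2.10) over all members. Neural crest genes stood at -0.36 (-0.63 to -0.10), iridophore genes at -0.18 (-0.47 to 0.11), immediate early genes at 0.11 (-0.07 to 0.29), heat shock genes at -0.05 (-0.13 to 0.04) and interferon genes at -0.49 (-1.17 to 0.17), with 34 against 49 UMIs. The sign of the melanin list thus turned with the members that were left out.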

How the data were processed

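The data were UMI counts per gene and barcode, deposited by the authors as 1 matrix per library with 37423 genes. The matrix headers name Cell Ranger 8.0.0 and the submitters' processing notes name GRCz11. The counts were not normalized. No column of other samples was present. Barcodes were filtered as stated in the report, no doublet caller was run, and possible doublets were treated through the markers of other cell types. UMIs were summed per library and set and divided by the total of the set to give CPM. Intervals were exact throughout and cover counting error only, by the Clopper-Pearson method for shares, the Poisson distribution for levels and a binomial conditional on both counts for ratios. Differences of log2 ratios carry normal intervals on log counts. With 1 library per genotype no test was run, and a gene was called at 2-fold with a mean of at least 50 CPM (20 CPM in lists).

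The members, the 21 gene lists and the markers were chosen with earlier results of these data known, and the pigment-positive, low-marker and high-marker sets were added after the data were seen. Genes named were the 5 genes of the criteria, *pnp4a*, *polr3a*, the 15 leading genes, the 10 highest and 10 lowest ratios, the 3 genes of each list farthest from 0 and pigment list genes by level, others being marked in the text. Filtered barcodes summed to 136913110 UMIs labelled mutant and 164266670 labelled wild-type, and members to 1021613 and 1242379. The ratios and their intervals were tested on simulated counts, drawn independently for each gene. That test cannot show how they hold where few members carry most UMIs of a gene. Python 3.11.15, NumPy 2.4.6, SciPy 1.17.1, pandas 2.3.3 and matplotlib 3.10.9 were used. Alternatives were other limits on members, thinning, centring, weighting cells equally, adding 1 after scaling to 10000, and other call limits. No reference sequence was used.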

Additional observations from a re-analysis of the deposited data

Results flagged for a closer look

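The 10 genes flagged here had log2 ratios, labelled mutant over labelled wild-type, of opposite signs in the members and in all other barcodes. They are not a count over all genes. Of genes that averaged 20 CPM or more, 45% were above 0 in members and 60.5% in all other barcodes. In the S phase list 15 of 26 genes were above 0 in members and 0 of 29 in all other barcodes. With 1 library per genotype these differences were not tested. Among genes of the criteria, *aox5* stood at 0.38 in members and -0.40 elsewhere, *pax7a* at 0.30 and -0.35, and *pax7b* at 0.14 and -0.34, and since these genes chose the members their values follow the choice in part. *pvalb5* stood at 6.35 in members and -0.55 elsewhere, *ca6* at -5.17 and 0.26, and *fabp11b* at -5.02 and 0.65. The pigment granule receptor *gpr143* stood at -0.40 and 0.28. The melanin genes *tyrp1b*, *dct* and *pmelb* stood at -3.73 and 0.38, -3.72 and 0.43, and -3.37 and 0.85. Among low-marker members *gpr143* kept its sign at -0.63, while *tyrp1b*, *dct* and *fabp11b* turned to 1.74, 2.36 and 1.62, each on few UMIs, and *pmelb* turned to 10 against 0 UMIs.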

How the results depend on the processing

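No paired analysis was possible because each genotype had 1 library and the labels give no replicate numbers. Over all members the shares were 0.796% labelled mutant and 0.734% labelled wild-type, 30 genes were 2-fold higher and 91 lower, and the list medians were 0.39 for pteridine synthesis, 0.34 for purine synthesis, 0.57 for stress, 0.33 for amino acid metabolism, 0.10 for p53 targets, 0.23 for ribosome assembly, -0.27 for ribosomal proteins, -0.13 for Pol III, 0.04 for S phase and -0.77 for G2/M. Of 1529 alternative values, 1028 stayed within the interval of the value they replace (for list medians, that of a median over the genes of the list) or, for counts of genes, within 1.5 times, 474 moved further, and 27 values of genes that were 2-fold apart changed sign. *pmelb*, at 10 against 0 UMIs in low-marker members, has no finite ratio there and is not among them. Besides these, 7 list medians changed sign. The cause of each move was not tested.

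With 10 or more UMIs over the 5 genes the share labelled wild-type was 0.636% and the S phase median 0.34. With at least 4 of the 5 genes the shares were 0.466% and 0.435%, and the medians 0.52 for ribosome assembly, -0.19 for ribosomal proteins, 1.1 for S phase and -0.99 for G2/M, and that of Pol III turned to 0.26. With at most 10000 UMIs these 4 medians were 0.52, -0.21, 0.62 and -1.83. With *pnp4a* under 2 UMIs 51 genes were higher. Thinning to 2000 UMIs gave shares of 0.584% and 0.559%. Centring on the median gene gave -0.22 for ribosomal proteins. Weighting cells equally gave -0.13 for them and 0.47 for S phase. Adding 1 after scaling to 10000 gave 12 genes higher, 27 lower, and medians of 0.22 for stress, 0.0666 for ribosome assembly, -0.24 for ribosomal proteins and -0.22 for G2/M. Doubling the CPM limit gave 15 higher and 28 lower genes and turned the S phase median to -0.00532, and halving it gave 91 and 217.

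Pigment-positive members alone gave a share labelled wild-type of 0.591%, 53 lower genes and medians of 0.50 for ribosome assembly, -0.18 for ribosomal proteins, 0.99 for S phase, -0.36 for G2/M and 0.12 for Pol III. Low-marker members gave shares of 0.433% and 0.307%, 34 lower genes and medians of 0.0705 for purine synthesis, 0.0375 for stress, -0.24 for ribosomal proteins, 1.27 for S phase and -0.00673 for G2/M. Within the wide intervals of their medians, pteridine synthesis went to 0.0955, p53 targets to 0.26 and amino acid metabolism to -0.00152. There *cyt1* (0.23), *dct* (2.36), *fabp11b* (1.62), *hbbe1.2* (-1.96), *hbbe1.3* (-0.0500), *krt17* (0.0375), *opn1sw2* (0.62), *slc1a4* (-1.55) and *tyrp1b* (1.74) changed sign. Possible doublets were members with at least 5 UMIs summed over markers of other cell types. Leaving them out gave shares of 0.301% (0.239 to 0.373) and 0.175% (0.135 to 0.222), a ratio of 1.72 (1.23 to 2.41), 125 higher and 169 lower genes, and medians of 0.53 for p53 targets, 0.0203 for ribosome assembly, -0.22 for ribosomal proteins, 0.43 for Pol III, 0.53 for S phase, -1.79 for G2/M and -0.0555 for amino acid metabolism. There *LOC100334599* (-0.21), *dct* (1.38), *fabp11b* (0.79), *hbae1.3* (-1.21), *hbae3* (-0.53), *hbbe1.2* (-1.79), *hsp90aa1.2* (0.11), *opn1sw2* (0.53), *slc1a4* (-0.21) and *tyrp1b* (3.49) changed sign. The markers of that choice held *csf1ra* and *pax3a*, which xanthophores use. Without these 2 markers, as decided once the data had been seen, the shares were 0.436% and 0.315%, a ratio of 1.38 (1.06 to 1.80), 36 genes were lower, and the medians were 0.0932 for stress, 0.70 for S phase, -0.23 for G2/M and -0.0164 for amino acid metabolism. This choice kept 119 and 119 members against 118 and 116 low-marker members, so it nearly repeats the low-marker limit and is not a separate check. There *cyt1* (0.25), *dct* (1.38), *fabp11b* (1.64), *hbbe1.2* (-1.94), *hbbe1.3* (-0.0278), *opn1sw2* (0.64), *slc1a4* (-1.53) and *tyrp1b* (1.76) changed sign.

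Depth limited single genes most, since many had under 50 UMIs in low-marker members of either library, and differences among fish were not measured.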
